A study of Homo sapiens with 6 samples.

Results

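The libraries described here are 3 of the 6 in the study. They are the IGF2BP3 libraries whose RNA was recovered from crushed gel, with RNase I at 0.1/0.025 U/µL, with RNase I at 0.05/0.025 U/µL and with RNase T1 at 0.25/0.25 U/µL, the first number giving the concentration in the lysate and the second that on the beads. They were chosen by antibody, enzyme and gel extraction, and not by any measured value. All came from HCT116, a human colorectal carcinoma line, of the genotype Tet-OsTIR1-PURO, which carries the plant F-box protein OsTIR1 under tetracycline control. The cells were given 4-thiouridine (4sU) at 100 µM for 15 h and crosslinked with long-wave UV light, and the RNA was processed by IR-PAR-CLIP, in which an infrared dye on the 3′ adapter takes the place of a radioactive label. According to the study, the antibody against IGF2BP3 also recognises the paralog IGF2BP2 in part. There was 1 library per condition and no replicate, so that no difference between the enzymes was tested, and enzyme, concentration and library cannot be told apart. The nearest measure of spread is the difference between both RNase I libraries, which themselves differ in the concentration in the lysate. Both also hold more reads than the RNase T1 library. Intervals given below are 95% intervals and cover counting error only.

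IGF2BP3 is an oncofetal RNA-binding protein with RNA recognition motif and KH domains that binds many mRNAs, mostly in their 3′UTRs, and is known for stabilising them in cancer cells. In PAR-CLIP the RNA held by the protein is trimmed by an RNase, and a crosslinked 4sU is read as C, and such T-to-C conversions therefore point to bases that touched the protein. RNase I cuts single-stranded RNA after any base, whereas RNase T1 cuts it after guanosine. A cluster is a stretch of overlapping reads that PARalyzer called from such conversions, in each library separately.

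The RNase T1 library held 13568 clusters with 182448 reads. RNase I 0.1/0.025 held 43385 clusters with 803490 reads, and RNase I 0.05/0.025 held 36795 clusters with 670712 reads. The RNase T1 library was thus the shallowest of the 3, and 3 reads, taken below as the floor for a count of 0, were worth 16.4 RPM there (cluster reads scaled to a total of 1000000 per library) against 3.73 and 4.47 RPM with RNase I. The IgG library, made with RNase I 0.1/0.025 and with a gel extraction that the sources used here do not give, held 25 clusters with 324 reads. Of the epithelial markers, KRT8 had 64 and 68 reads with RNase I and 0 with RNase T1, EPCAM had 40, 46 and 5 reads, KRT19 had 20, 18 and 0, KRT18 had 12, 8 and 0, and CDH1 had 0, 5 and 5. Clusters count bound RNA, so these values are not levels of expression. Markers of leukocytes (PTPRC, CD3E), endothelium (PECAM1, VWF), fibroblasts (COL1A1, COL3A1) and hepatocytes (ALB) had 0 reads in all 3 libraries.

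The ends of the clusters are shown first, since the enzymes are known to differ in the base after which they cut. The 3 lines below give the cluster with the most RNase T1 reads in the 3′UTR of CYB5B, of PTP4A1 and of PAICS. Each line holds the last 15 bases of the RNase T1 cluster and the 15 bases that follow it in the genome (GRCh38, plus strand), with the last base of the cluster in capitals.
CYB5B, RNase T1 0.25/0.25, chr16:69462918-69462947: catttttcttttaaGtaaattttttttaaa
PTP4A1, RNase T1 0.25/0.25, chr6:63580702-63580731: tatacgtcaggtttGcttaaccattgattt
PAICS, RNase T1 0.25/0.25, chr4:56460656-56460685: atccatggtttataGattaagaattgatga
The overlapping RNase I clusters at the same 3 sites ended elsewhere, as the next lines show in the same way.
CYB5B, RNase I 0.1/0.025, chr16:69463008-69463037: ccaaggtgggaagaTcgcttgaggccaaga
CYB5B, RNase I 0.05/0.025, chr16:69462900-69462929: ttgaaagttttattTttccatttttctttt
PTP4A1, RNase I 0.1/0.025, chr6:63580883-63580912: tttaatgtttgcacTctgaggtgcaactta
PTP4A1, RNase I 0.05/0.025, chr6:63580760-63580789: attattttacgtgtTtccatgtatctcact
PAICS, RNase I 0.1/0.025 and 0.05/0.025, chr4:56460699-56460728: agtggctcacacctAcgatcacagcacttc
The RNase T1 clusters ended in G at all 3 sites. The RNase I clusters ended in T at CYB5B and PTP4A1 and in A at PAICS, where both libraries had the same end. The reads in these RNase T1 clusters numbered 900 at CYB5B, 781 at PTP4A1 and 727 at PAICS.

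Over all clusters, the last base was G in 91.7% with RNase T1, against 12.2% with RNase I 0.1/0.025 and 11.8% with RNase I 0.05/0.025. The base just before the first cluster base was G in 54.2%, 14.7% and 15.0%, in the same order. The first cluster base was itself G in 35.2% with RNase T1, against 7.68% and 7.24%. Guanosine was scarce next to the 3′ end with RNase T1, with G as the base before the last in 3.87% of the clusters, against 21.5% and 20.9% with RNase I. The electroeluted libraries, made with RNase T1 1/1 and RNase I 0.05/0.05 U/µL and differing from the 3 libraries in both concentration and gel extraction, had G as the last base in 94.7% and 13% of the clusters.

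**Figure D1:**
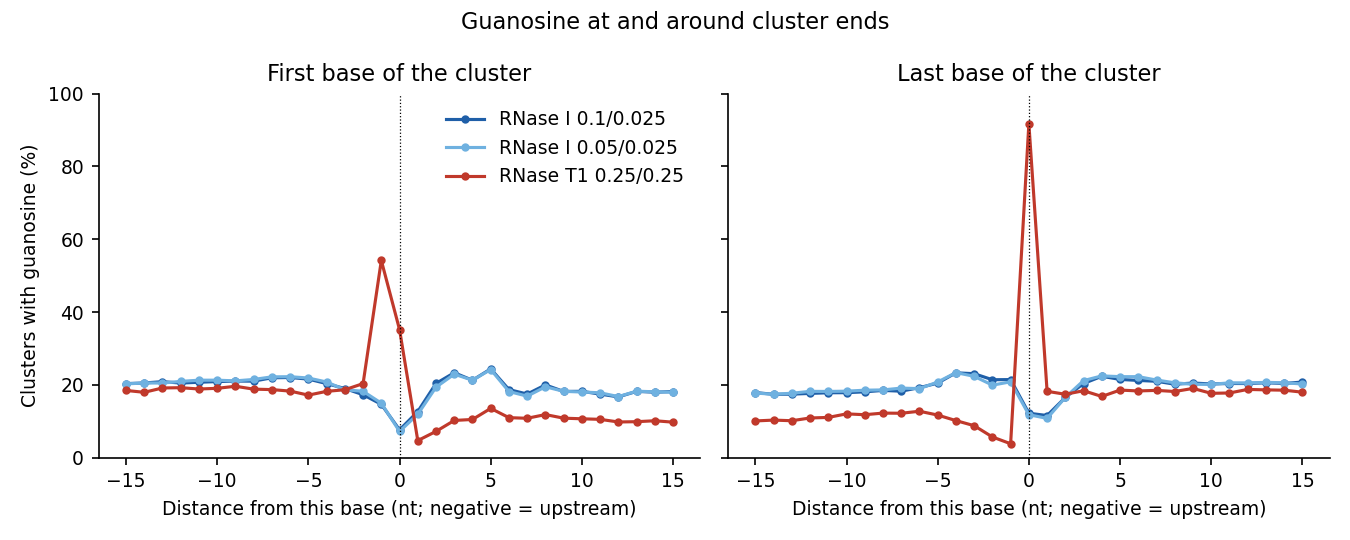
Share of clusters with guanosine at each position (y axis, percent) around the first cluster base (left) and the last cluster base (right), by distance in nt (x axis), one line per library. The RNase T1 0.25/0.25 line reaches 91.7% at the last base, where the RNase I lines are at 12.2% and 11.8%.

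Guanosine was also scarcer within the clusters. It made up 14.3% of the cluster bases with RNase T1 and 18% and 18.1% with RNase I, while T made up 34.6% against 31.9% and 32.1%. Clusters with no guanosine other than at the first or last base were 15.5% of all with RNase T1 (95% Wilson interval 14.9% to 16.1%) and 0.288% and 0.285% with RNase I. This share depends on cluster length, which was shorter with RNase T1, and clusters of like length were not compared. The longest run without guanosine in a cluster had a median of 18 nt with RNase T1 and of 14 nt with either RNase I concentration.

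The RNase T1 clusters were shorter. Their median length was 37 nt (quartiles 29 and 50 nt), against 53 nt and 52 nt with RNase I (quartiles 38 and 77 nt in both). Clusters of at least 100 nt made up 3.09% with RNase T1 and 14.8% and 14.2% with RNase I. When each cluster was weighted by its reads, the medians were 47 nt, 107 nt and 104 nt. Reads with RNase T1 carried 0.547 T-to-C conversions on average, against 0.644 with RNase I 0.1/0.025 and 0.600 with RNase I 0.05/0.025. Cluster length rests on how reads join into clusters and therefore on depth, and this effect was not tested. Thinning the RNase I reads to the RNase T1 total kept the borders of called clusters and dropped those left with too few reads. It therefore cannot show how depth acts on length. The difference in the median was then -24.0 nt in place of -15.5 nt.

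Most reads lay in 3′UTRs with either enzyme. With RNase T1, 76.7% of the cluster reads (95% Wilson interval 76.6% to 76.9%) came from clusters touching a 3′UTR of the annotation, against 74.9% with RNase I 0.1/0.025 and 73.0% with RNase I 0.05/0.025. Coding sequence held 6.25% (6.14% to 6.36%) of the reads with RNase T1 and 9.12% and 9.75% with RNase I. The RNase T1 value was thus below both RNase I values for coding sequence, and the difference was larger than that between the RNase I libraries. The 5′UTRs, at 0.179%, 0.278% and 0.281% of the reads, and non-coding exons, at 5.35%, 6.29% and 7.44%, had smaller shares with RNase T1 as well. Introns held 3.43% with RNase T1 against 2.81% and 2.87%, and sequence outside annotated genes held 8.03% against 6.59% and 6.66%. For mitochondrial RNA the RNase T1 share of 2.42% was close to that of RNase I 0.05/0.025 and above the 1.75% of RNase I 0.1/0.025, so that no direction held against both. The electroeluted pair gave 76.6% in 3′UTRs and 6.80% in coding sequence with RNase T1, and 73.8% and 10.4% with RNase I.

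The same sites were largely found with both enzymes, but seldom with the same borders. Of the RNase T1 clusters, 87.7% (87.1% to 88.2%) shared at least 1 nt, in the same orientation, with an RNase I 0.1/0.025 cluster, 83.2% overlapped an RNase I 0.05/0.025 cluster, and 79.1% overlapped both. In the other direction, an RNase T1 cluster was present at 22.0% of the clusters of RNase I 0.1/0.025 and 25.0% of those of RNase I 0.05/0.025, while the RNase I libraries found 61.4% and 73.2% of each other. Such shares depend on the number of clusters and reads, both lowest in the RNase T1 library, and the part of depth was not tested. The deeper RNase T1 1/1 library had a cluster at 53.5% and 54.4% of the same RNase I clusters. When each cluster of a pair had to cover at least 50% of the other, the share of RNase T1 clusters was 26% for RNase I 0.1/0.025 and 26.6% for RNase I 0.05/0.025. By this rule 63.8% of the RNase T1 0.25/0.25 clusters matched a cluster of the electroeluted RNase T1 1/1 library and 17.2% one of the electroeluted RNase I library. With an overlap of at least 1 nt the order was reversed, at 87.1% and 95.5%. The 50% rule depends on cluster length. The median length was 33 nt with RNase T1 1/1 and 54 nt with RNase I 0.05/0.05, and clusters of like length were not compared.

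RNase T1 clusters mostly lay inside those of RNase I. Of the RNase T1 clusters that overlapped one, 67.7% lay wholly inside the RNase I 0.1/0.025 cluster and 63.2% wholly inside the RNase I 0.05/0.025 cluster. For comparison, 23.5% of the overlapping RNase I 0.1/0.025 clusters lay inside an RNase I 0.05/0.025 cluster. Lying inside depends on length, so this is not separate from the length difference given above. The overlapping RNase T1 clusters had a median of 39 nt, and the RNase I clusters that they overlapped had medians of 84 nt and 78 nt. All clusters of the RNase I libraries had like medians, of 53 nt and 52 nt. Among the RNase I clusters that were overlapped, 20.7% and 20.4% held at least 2 separate RNase T1 clusters, with up to 12 and 9 in 1 cluster. The mode that the files give for each cluster was a median of 43 nt and 40 nt away between an RNase T1 cluster and the RNase I cluster overlapping it, and 32 nt away between the RNase I libraries. It lay within 5 nt in 9.84%, 10.2% and 14.7% of these pairs. The mode was often at the edge of the cluster in all 3 libraries, at the first base in 33.1% to 34.5% of the clusters and at the last base in 21.9% to 28.5%, and it was a T in 27.4% to 32.3%. Windows around the middle base of the cluster are therefore given beside windows around the mode.

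A group of 1118 RNase T1 clusters, 8.24% of all, overlapped no cluster of either crushed-gel RNase I library. These had a median length of 29 nt and a median of 6 reads, and guanosine made up 10.6% of their bases, against 14.8% in the RNase T1 clusters found in both RNase I libraries. Of them, 21.5% lay outside annotated genes, against 6.83% of those found in both. The deeper electroeluted libraries held 76.9% of these sites with RNase T1 and 61.7% with RNase I.

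Whether an RNase I site was also found with RNase T1 went with the guanosine around it. Sites were RNase I clusters of at least 10 reads, and guanosines were counted within 20 nt on either side of the mode. Of the RNase I 0.1/0.025 sites with 0 to 3 guanosines, 50.8% (47.6% to 53.9%) overlapped an RNase T1 cluster. The share was 47.3% with 4 to 5 guanosines, 42.5% with 6 to 7, 39.7% with 8 to 9 and 37.2% with 10 to 13, and it was 41.6% with 14 or more. The RNase I 0.05/0.025 sites gave 53.6%, 51.7%, 46.9%, 42.4%, 41.6% and 42.7% in the same order. Around the middle base of the cluster the decline was steeper and did not turn at the end, from 53.4% to 31.7% for RNase I 0.1/0.025 and from 58.6% to 28.8% for RNase I 0.05/0.025. The electroeluted RNase T1 1/1 library found 91.8% of the RNase I 0.1/0.025 sites with the fewest guanosines and 61.1% of those with the most by this window. Among deeper sites, those of at least 40 reads, the difference in recovery between few and many guanosines around the mode (the lower and the upper quartile) was smaller, at 3.53 points for RNase I 0.1/0.025 and 4.40 points for RNase I 0.05/0.025, against 9.02 and 8.88 points for all sites of at least 10 reads. By either window, between 85.1% and 89.5% of the RNase I 0.1/0.025 sites in each bin were found with RNase I 0.05/0.025.

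**Figure D2:**
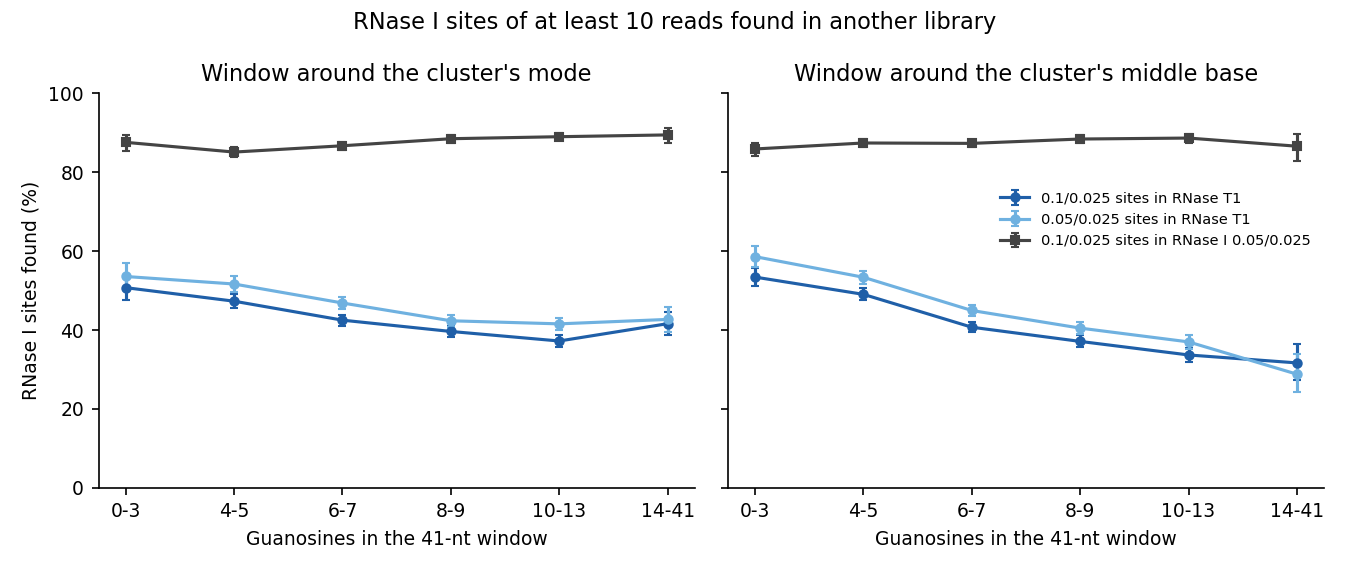
Share of RNase I sites of at least 10 reads that overlap a cluster of another library (y axis, percent, with 95% Wilson intervals) by the number of guanosines in the window (x axis). For RNase T1 0.25/0.25 the share of RNase I 0.1/0.025 sites falls from 50.8% to 37.2% over the first 5 bins around the mode, and from 53.4% to 31.7% around the middle base.

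The short words around the mode differed along the same line. Of all tetramers, 90 were found in a larger share of RNase T1 windows (10 nt on either side of the mode) than in either RNase I library, and 66 of these held no G, of 81 such tetramers in all. In a smaller share were 153 tetramers, of which 142 held a G, of 175 in all. Among those without G, TTTC was in 18.8% of the RNase T1 windows against 12.6% and 12.8% with RNase I, TTCA in 17.7% against 11.7% and 12.1%, and CATT, part of the CA-rich sequence known for IGF2BP proteins, in 16.5% against 11.3% and 11.2%. Among those with G, GGAA was in 5.59% against 8.46% in both, GAAA in 8.96% against 12.2% in both, and GGAC, the core of the sequence in which m6A is placed, in 3.86% against 4.78% and 4.67%. The exceptions were 24 tetramers with G that were higher and 11 without G that were lower. Among them were AAAA, in 10.3% against 13.2% and 12.8%, and CAGT, in 10.7% against 9.82% and 10.2%. CAGT is the CAGU that the study found as the most significant motif with RNase I, by enrichment and not by such shares. With RNase T1 the study did not find CAGU, and its strongest motif there was CAUU, which is CATT here. AAAA and CAGT had the opposite direction in windows around the middle base, CAGT with 8.72% against 12.5% and 12.3%. There all 81 tetramers without G were higher and all 175 with G were lower with RNase T1. CATT was then in 23.6% of the windows against 17.6% and 17.3%, and CACA in 13.6% against 11.9% and 11.3%. The triplet GGC was in 10.6% against 14.8% and 14.9%. Neighbouring tetramers overlap and are not independent, and the shares in a window depend on its base content.

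At the level of genes, cluster reads were summed over each gene of GENCODE release 44 when a cluster shared at least 1 nt with one of its exons, strand included. Reads were found in 8546 genes, and 3034 of them had a mean of at least 50 RPM over the 3 libraries and were compared. The log2 ratio of RNase T1 over RNase I had a median of -0.22 for RNase I 0.1/0.025 and -0.21 for RNase I 0.05/0.025. For the 1119 genes with a mean of at least 200 RPM the sign of the median turned, to 0.09 and 0.07. The SD of the log2 ratio over all 3034 genes was 1.15 and 1.17, against 0.47 for the ratio between the RNase I libraries. These were not ratios of like depth, since 50 RPM was 9.12 reads with RNase T1, against 40.2 and 33.5 with RNase I. Counting error and counts of 0 therefore add more to the ratios with RNase T1. Their part in the SD and in the calls below was not tested. Of the genes compared, 9 (0.297%) were at least 4-fold higher with RNase T1 than with both RNase I libraries, and 301 (9.92%) were at least 4-fold lower. These counts are not balanced, since both RNase I libraries enter the mean of the filter. Genes high only with RNase T1 pass it less easily. Of the lower genes, 222 had no RNase T1 read and passed through RNase I alone. The closing section gives the counts with other filters. At 2-fold, 146 genes (4.81%) were higher and 691 (22.8%) lower. Between the RNase I libraries, 11 genes (0.363%) differed at least 4-fold in either direction and 127 (4.19%) at least 2-fold. Among the genes of at least 200 RPM, 2 were at least 4-fold higher and 17 at least 4-fold lower, so that most of the lower genes had a mean under 200 RPM.

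**Figure D3:**
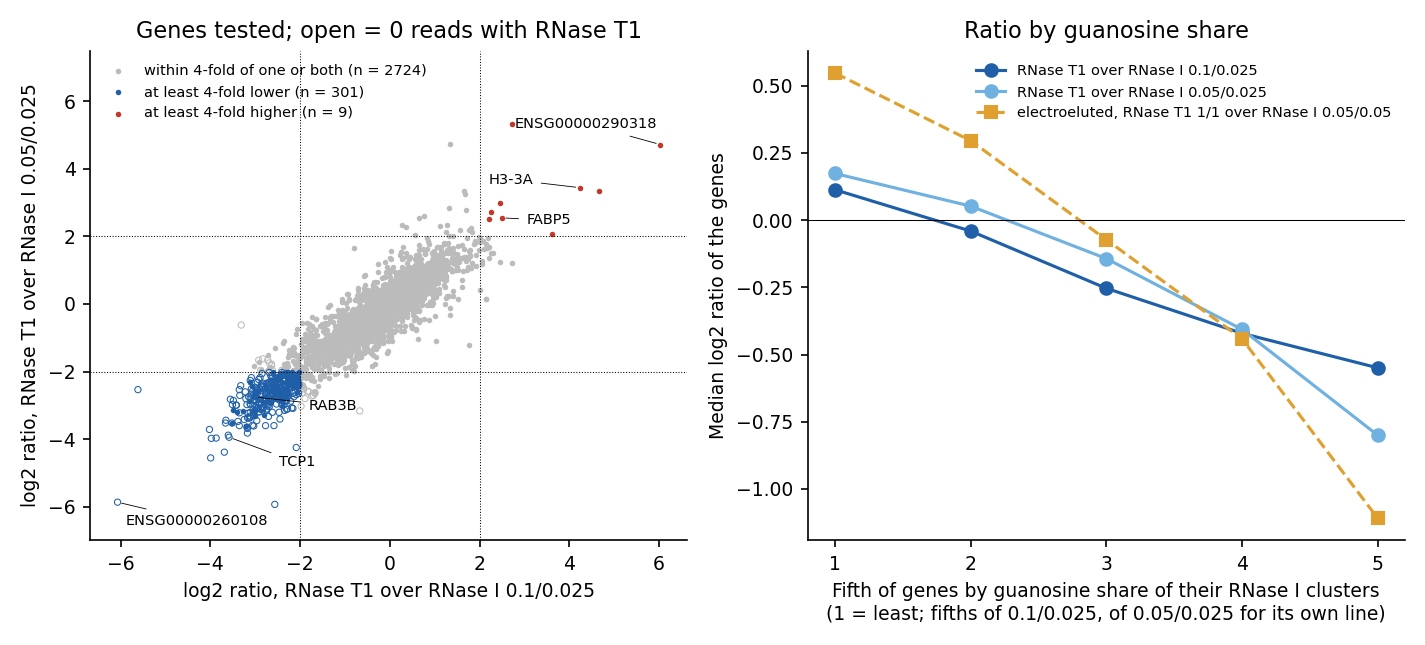
Left, log2 ratio of RNase T1 over RNase I 0.05/0.025 (y axis) against that over RNase I 0.1/0.025 (x axis) for the 3034 genes compared, with 9 genes at least 4-fold higher and 301 at least 4-fold lower than both. Right, median log2 ratio of the genes (y axis) in 5 groups of like size by the guanosine share of their RNase I clusters (x axis), which falls from 0.11 to -0.55 for RNase I 0.1/0.025.

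In 5 of the 9 higher genes the RNase T1 reads lay in clusters that touched another gene or whose sequence was also listed at another place. The highest ratio was that of ENSG00000290318, a protein-coding gene (chr3:49357176-49412051, minus strand), with 16 reads (19.9 RPM) and 33 reads (49.2 RPM) with RNase I and 237 reads (1299 RPM) with RNase T1. All 237 RNase T1 reads lay in 1 cluster of 252 nt in the 3′UTR of RHOA, which touches an exon of ENSG00000290318 by 1 base. With clusters given to the gene of their middle base, ENSG00000290318 had 0 RNase T1 reads and was not called. The remaining 8 genes were called by this rule as well.

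H3-3A, which codes for the replacement histone H3.3, had 18 reads (22.4 RPM) and 26 reads (38.8 RPM) with RNase I and 77 reads (422 RPM) with RNase T1. It was 18.8-fold (11.2 to 33.5) higher than RNase I 0.1/0.025 and 10.9-fold (6.90 to 17.7) higher than RNase I 0.05/0.025. The lncRNA gene ENSG00000290018 on chromosome 2 had 12, 25 and 69 reads, and its 69 RNase T1 reads were in a cluster of the same sequence and read number as one of H3-3A. The 30 bases around the middle of both clusters, with guanosines in capitals, show that the reads cannot be assigned to either.
H3-3A, RNase T1 0.25/0.25, plus strand, chr1:226071878-226071907: aGtaGattccatccattcactatacttttc
ENSG00000290018, RNase T1 0.25/0.25, plus strand, chr2:174720716-174720745: aGtaGattccatccattcactatacttttc
FABP5, a fatty acid-binding protein, had 180 reads (224 RPM) and 145 reads (216 RPM) with RNase I and 231 reads (1266 RPM) with RNase T1. The ratio was 5.65 (4.63 to 6.91) and 5.86 (4.74 to 7.26). All RNase T1 reads of FABP5 were in 1 cluster of 49 nt whose sequence was also listed, with 231 reads, at a place without an annotated exon, whereas its RNase I clusters of 163 nt and 162 nt recurred nowhere. Without clusters whose sequence recurs in the library, FABP5 had no RNase T1 reads and its direction was reversed. Such clusters made up 7.75% of all with RNase T1, against 3.32% and 3.61% with RNase I, and in 4 of the 9 higher genes (FABP5, H3-3A, ENSG00000290018 and the lncRNA gene ENSG00000280434) they held all RNase T1 reads.

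The other higher genes had no such copy. Y_RNA on chromosome 19 (chr19:11408772-11408880), annotated as 1 of the small Y RNAs of Ro ribonucleoprotein particles, had 30 reads (37.3 RPM) and 72 reads (107 RPM) with RNase I and 83 reads (455 RPM) with RNase T1. TCHP, a keratin filament-binding protein, had 35 reads (43.6 RPM) and 21 reads (31.3 RPM) with RNase I and 38 reads (208 RPM) with RNase T1. RBM12B, an RNA-binding protein, had 35, 24 and 37 reads. For these genes the ratio to the RNase I library nearer to it was 4.24 (3.05 to 5.89), 4.78 (2.94 to 7.80) and 4.66 (2.85 to 7.61), so that the lower limits were under the 4-fold by which they were chosen. RN7SL675P, a pseudogene of the 7SL RNA, had 22, 0 and 33 reads. The middle of the RNase T1 clusters with most reads in Y_RNA, TCHP and ENSG00000280434 read as follows, with guanosines in capitals.
Y_RNA, RNase T1 0.25/0.25, plus strand, chr19:11408830-11408859: ccttGttctactctttccccccttctcact
TCHP, RNase T1 0.25/0.25, plus strand, chr12:109917711-109917740: taatattattttatGacttGtatttttact
ENSG00000280434, RNase T1 0.25/0.25, plus strand, chr22:44150683-44150712: GtGcaGGcttcaaacctGtaGctGtctaGt
They held 1, 2 and 8 guanosines. In the electroeluted pair all 9 genes were higher with RNase T1, as were 1372 (45.2%) of all genes compared. The difference was 7.74-fold for ENSG00000290318, 6.69-fold for H3-3A, 4.77-fold for FABP5 and 4.71-fold for Y_RNA on chromosome 19, but 1.87-fold for TCHP and 1.19-fold for ENSG00000280434. These values keep shared and recurring clusters, so the limits given above for such genes hold here too. Recurring clusters made up 6.24% of all with RNase T1 1/1 and 2.67% with RNase I 0.05/0.05.

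**Figure D4:**
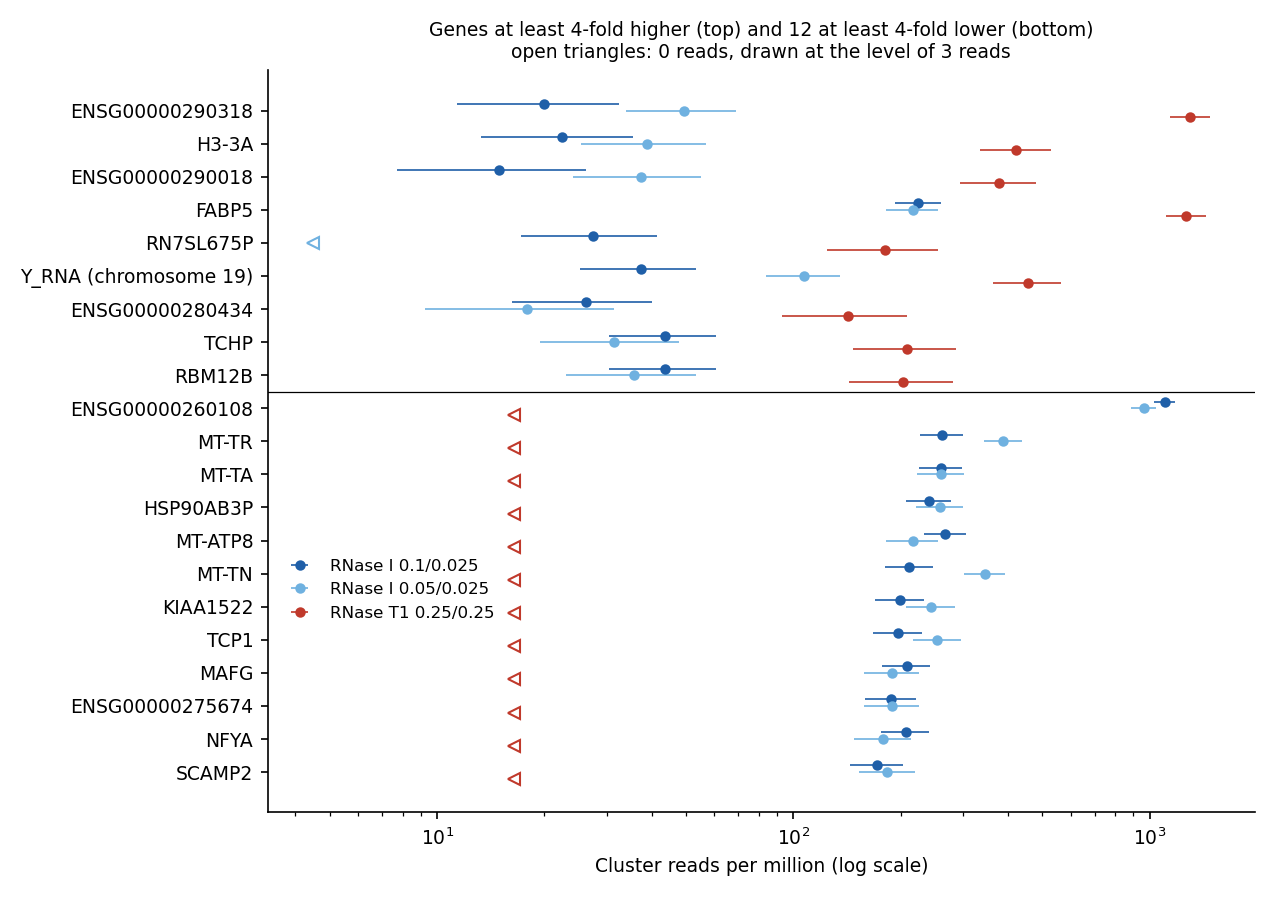
Cluster reads in RPM on a log axis (x axis) of the 9 genes at least 4-fold higher with RNase T1 and of the 12 genes named as lower (y axis), in each of the 3 libraries, with exact Poisson 95% intervals. The 12 lower genes had 0 RNase T1 reads and are drawn as open triangles at the level of 3 reads, 16.4 RPM.

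The 301 lower genes fell into 222 with no RNase T1 read and 79 with 4 to 17 RNase T1 reads. The ratio of the first is a bound that rests on the floor of 3 reads. It covers reads in clusters only, since a count of 0 means that no cluster was called. Had the floor been 6 reads, which is the lower quartile of reads per RNase T1 cluster, 110 lower genes would have remained. Scaled to the RNase T1 total, the largest RNase I 0.1/0.025 cluster of the 222 genes had a median of 6.02 reads, and in 111 of the genes it had fewer than 6. In 72 genes it had at least 8, the median of an RNase T1 cluster. The deeper RNase T1 1/1 library held clusters in 211 of the 222 genes, at a median of 63.1 RPM against 114 RPM with RNase I 0.05/0.05.

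The lower genes with the firmest counts were the following. ENSG00000260108, a lncRNA gene within the 3′ end of CYB5B (chr16:69463844-69466264, plus strand), had 885 reads (1101 RPM) and 645 reads (962 RPM) with RNase I and 0 with RNase T1, at least 67.0-fold and 58.5-fold lower. All its clusters also overlap CYB5B, the cytochrome b5 of the outer mitochondrial membrane, which had 3335, 2795 and 1183 reads (4151, 4167 and 6484 RPM) and was 1.56-fold higher with RNase T1 than with either. By the middle base ENSG00000260108 kept 99 and 58 reads with RNase I and 0 with RNase T1. TCP1, a subunit of the chaperonin that folds actin and tubulin, had 158 reads (197 RPM) and 170 reads (253 RPM) with RNase I and 0 with RNase T1, at least 12-fold and 15.4-fold lower. KIAA1522 had 160 reads (199 RPM), 163 reads (243 RPM) and 0, at least 12.1-fold and 14.8-fold lower. In each of these genes both RNase I libraries were above the RNase T1 floor of 16.4 RPM. These folds rest on that floor, and RNase T1 reads in stretches that were not called as clusters are not counted. With RNase I 0.1/0.025 the reads of TCP1 were spread over 13 clusters, the largest with 32 reads. Those of KIAA1522 were spread over 11, the largest with 58 reads.

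MAFG, a small MAF transcription factor, had 167 reads (208 RPM), 127 reads (189 RPM) and 0. NFYA, a subunit of the factor that binds the CCAAT box, had 166 reads (207 RPM), 120 reads (179 RPM) and 0. SCAMP2, a membrane protein of secretory carriers, had 138 reads (172 RPM), 123 reads (183 RPM) and 0. In these 3 genes the RNase T1 value, taken at the floor, was at least 12.6-fold, 12.6-fold and 10.4-fold below RNase I 0.1/0.025. In the electroeluted pair, where both enzymes gave reads, they were 3.40-fold, 4.17-fold and 2.41-fold lower with RNase T1, while TCP1 was 1.98-fold and KIAA1522 2.33-fold lower. The middle of the RNase I 0.1/0.025 cluster with most reads in 4 of the lower genes is shown with its guanosines in capitals.
HSP90AB3P, RNase I 0.1/0.025, plus strand, chr4:87892990-87893019: tGaGGatctGcccctGaacatctcccGaGa
KIAA1522, RNase I 0.1/0.025, plus strand, chr1:32773246-32773275: tccaaaccatGcacatactataGtccaGaa
TCP1, RNase I 0.1/0.025, minus strand, chr6:159785437-159785466: aattGttaacacaGatGaactGGGaaGaGa
MAFG, RNase I 0.1/0.025, minus strand, chr17:81920116-81920145: ttGGaatcatatcataaGtatccatGaaGa
They held 7, 3, 8 and 5 guanosines in 30 bases, a range that overlaps that of the RNase T1 clusters of higher genes shown above. HSP90AB3P, a processed pseudogene of the chaperone HSP90, had 193, 173 and 0 reads. Reads of such a pseudogene and of its parent gene may not be separable.

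Mitochondrial genes named among the lower ones stood on shared or copied clusters. MT-TR, the mitochondrial tRNA for arginine, had 210, 260 and 0 reads, and all its clusters also overlapped MT-ND4L, a subunit of respiratory complex I with 210, 296 and 43 reads. MT-TA and MT-TN, the tRNAs for alanine and asparagine, had 208, 174 and 0 reads and 170, 231 and 0 reads. MT-ATP8, a subunit of ATP synthase, had 214, 145 and 0 reads. By the middle base MT-TR, MT-TA, MT-ATP8 and ENSG00000275674, a protein-coding gene that shares its clusters with NGRN, were no longer called. All RNase I reads of MT-TA lay in clusters whose sequence recurs in the library.

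Among lower genes with RNase T1 reads, RAB3B had the most reads with RNase I. RAB3B, a GTPase of regulated exocytosis, had 393 reads (489 RPM) in 39 clusters with RNase I 0.1/0.025, 273 reads (407 RPM) in 30 clusters with RNase I 0.05/0.025 and 11 reads (60.3 RPM) in 2 clusters with RNase T1. It was 8.11-fold lower than RNase I 0.1/0.025 and 6.75-fold lower than RNase I 0.05/0.025, with lower limits of 4.48-fold and 3.71-fold. Its reads were spread thinly along a 3′UTR, the largest RNase I 0.1/0.025 cluster holding 7.63% of them. MRPL49, of the mitochondrial ribosome, had 115, 109 and 6 reads, and VIRMA, a subunit of the m6A writer complex, had 91, 92 and 4 reads. In the electroeluted pair MRPL49 was 1.86-fold and VIRMA 1.49-fold lower with RNase T1, whereas RAB3B was 1.18-fold higher.

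Over all 301 lower genes, 260 (86.4%) were also lower with RNase T1 in the electroeluted pair, as were 54.8% of all genes compared. At least 4-fold lower in that pair were 68 (22.6%), against 7.12% of all genes. Of the 691 genes at least 2-fold lower, 542 (78.4%) had the same direction there, and of the 146 at least 2-fold higher, 137 (93.8%) had. The electroeluted libraries share no sample with the 3 libraries, but they differ from them in concentration and gel extraction as well.

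The ratio of a gene went with the guanosine content of its RNase I clusters. The genes were put into 5 groups of like size by this content. In the group with the least guanosine, a median of 13.9% in their RNase I 0.1/0.025 clusters, the median log2 ratio of RNase T1 over that library was 0.11. It was -0.04, -0.25, -0.42 and -0.55 in the following groups, the last with a median of 22.4% guanosine. Grouped by their RNase I 0.05/0.025 clusters, the ratio over that library went from 0.17 to -0.80. The electroeluted pair gave 0.55 in the first and -1.11 in the last of the groups by RNase I 0.1/0.025. Genes at least 2-fold lower than both made up 13.8% of the first group and 31.8% of the last, and genes at least 2-fold higher made up 12.9% and 2.14%. Across genes, which are not independent replicates and share libraries and base composition, Spearman's rho between the ratio and the guanosine share was -0.25 (n = 3034) for RNase I 0.1/0.025 and -0.34 (n = 3032) for RNase I 0.05/0.025. The ratio over RNase I 0.1/0.025 also went with the reads per cluster of the gene, with a rho of 0.26, although for RNase I 0.05/0.025 this was 0.11. The lower genes had a mean of 15.2% of their RNase I 0.1/0.025 reads in coding sequence, against 9.28% over all genes. What part each of these features has in the ratio was not tested.

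The median ratio was also taken over gene families. All medians below are read against -0.22 and -0.21 for all genes compared, and counts against 4.81% higher and 22.8% lower at 2-fold. Of 56 genes of cytosolic ribosomal proteins, 0 were at least 2-fold higher and 13 (23.2%) were at least 2-fold lower than both RNase I libraries, a share near that of all genes, with medians of -0.54 and -0.94. RPL32 had 90, 134 and 0 reads, RPS24 63, 72 and 0, and RPL12 67, 68 and 0. Of 33 genes encoded by the mitochondrial genome, 1 was higher and 10 lower, with medians of -0.28 and -0.90. With each cluster counted once, however, this list held 2.39% of the RNase T1 reads, against 1.73% and 2.38% with RNase I. Of 108 processed pseudogenes, 9 were higher and 30 lower, with medians of -0.28 and -0.61. In the electroeluted pair the medians of these 3 lists were -1.60, -1.60 and -1.36, against -0.11 for all genes.

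Solute carriers, which move small molecules across membranes, had lower medians than all genes. Of 42 solute carriers, 1 was higher and 14 (33.3%) lower, with medians of -0.49 and -0.47. SLC25A22, a mitochondrial glutamate carrier, had 95, 91 and 0 reads, and SLC1A5, a glutamine transporter, had 73, 62 and 0. Of 26 genes of the respiratory chain and ATP synthase, 0 were higher and 6 lower. ATP5F1B, the beta subunit of ATP synthase, had 322, 426 and 25 reads (401, 635 and 137 RPM) and was 2.92-fold and 4.64-fold lower with RNase T1. Of 12 genes of glycolysis, 0 were higher and 2 lower, of which PKM, the pyruvate kinase, had 261, 245 and 23 reads (325, 365 and 126 RPM). Zinc finger genes had medians of opposite sign in the crushed-gel and electroeluted libraries. Of 51, 0 were higher and 14 lower in the crushed-gel libraries, with medians of -0.65 and -0.47, while their median in the electroeluted pair was 0.18.

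Other lists were near or above the median of all genes. Of 25 hnRNP and SR protein genes, which act in splicing, 1 was higher and 1 lower, with medians of 0.31 and 0.35. HNRNPF, which binds G-rich RNA, had 184, 163 and 155 reads (229, 243 and 850 RPM) and was 3.71-fold (2.98 to 4.62) and 3.50-fold (2.79 to 4.38) higher with RNase T1. The electroeluted pair gave 3.05-fold. The lower gene of this list was SRSF11, with 185, 140 and 15 reads. Of 20 proteasome genes, 1 was higher and 1 lower, with medians of 0.30 and 0.34, and PSMA7, a subunit of the core particle, had 88, 84 and 49 reads (110, 125 and 269 RPM). Of 25 RAB GTPases, RAB18 was higher, at 201, 111 and 121 reads (250, 165 and 663 RPM), and RAB3B lower, with medians of 0.28 and 0.34.

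Translation genes spread to both sides. Of 36 translation factors, 2 were higher and 4 lower, with medians of -0.13 and -0.36. EIF4E, which binds the mRNA cap, had 590, 470 and 283 reads (734, 701 and 1551 RPM) and was 2.11-fold (1.83 to 2.44) and 2.21-fold (1.90 to 2.57) higher with RNase T1. EIF3L, a subunit of the initiation factor EIF3, had 377, 471 and 31 reads (469, 702 and 170 RPM) and was 2.76-fold and 4.13-fold lower. EIF5B, which joins the ribosomal subunits, had 86, 57 and 0 reads. Of 18 mitochondrial ribosomal protein genes, 3 were higher and 3 lower, among them MRPL3 with 149, 126 and 107 reads (185, 188 and 586 RPM), 3.16-fold and 3.12-fold higher. Of 31 chaperones, 2 were higher and 6 lower. HSPE1, the mitochondrial co-chaperone, had 125, 90 and 70 reads and HSPA9, the mitochondrial HSP70, had 107, 78 and 0. Of the 6 genes of 14-3-3 proteins, 0 were past 2-fold in either direction, and of 12 actins and tubulins 1 was lower.

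Cell cycle genes included some with no RNase T1 read. Of 9 cyclins and CDKs, 0 were higher and 3 lower. CDK4, the kinase partner of the D cyclins, had 94, 95 and 0 reads and CDK8, the kinase of the Mediator complex, had 60, 54 and 0. With electroelution CDK4 had 80.8 RPM with RNase I and 76.9 RPM with RNase T1, and CDK8 had 79.2 RPM and 83.0 RPM, a difference of 1.05-fold in each. Of 69 lncRNA genes, 6 were higher and 14 lower, with medians of -0.05 and -0.13. Of 5 genes of keratins and adhesion proteins, 0 were higher and KRT8 was lower, and of 5 genes of m6A writers and readers, 0 were higher and VIRMA was lower. Of 11 genes annotated as misc_RNA, 2 were higher (Y_RNA on chromosome 19 and RN7SL675P) and 2 were lower, the Y_RNA genes on chromosome 20, with 81, 102 and 0 reads, and on chromosome 3, with 67, 71 and 0 reads.

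**Figure D5:**
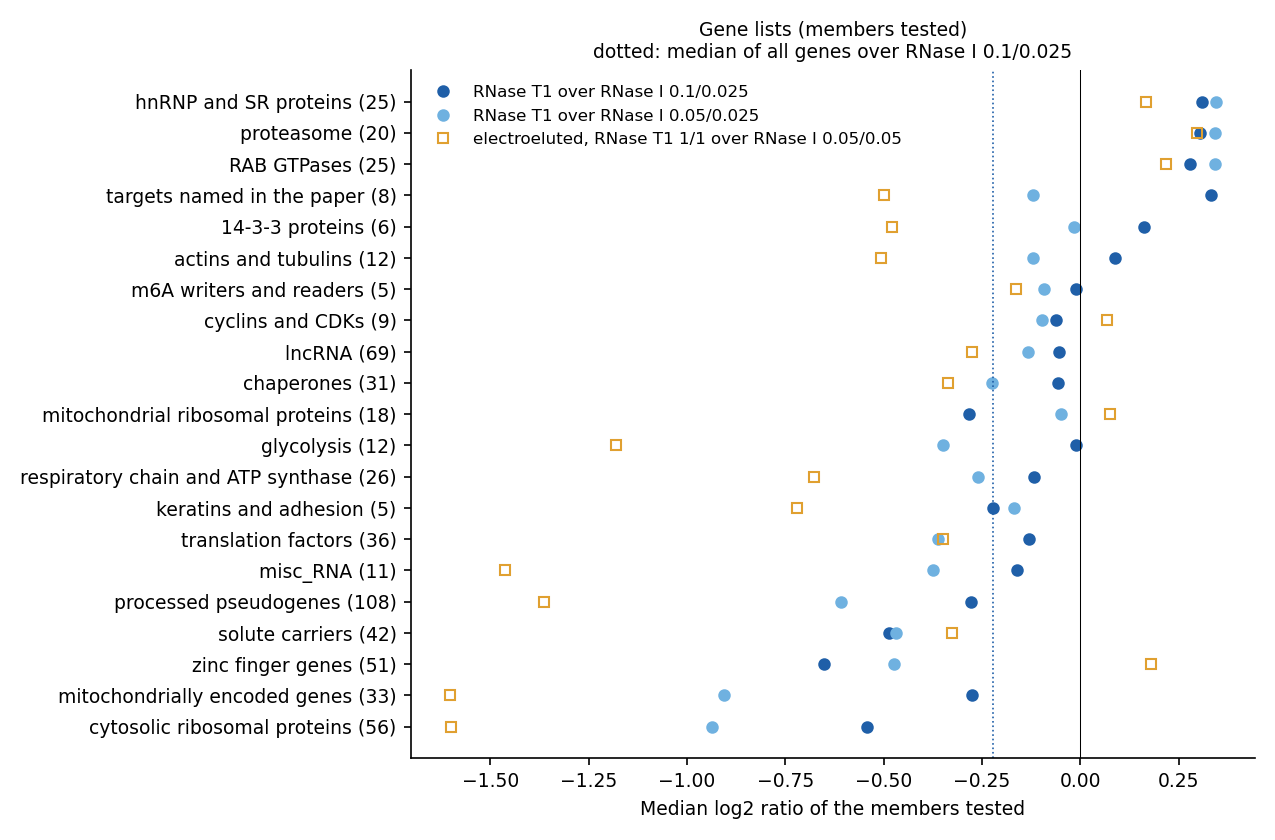
Median log2 ratio of RNase T1 over each RNase I library (x axis) of the members of each gene list that were compared (y axis, number of members in brackets), with the electroeluted pair as open squares. Cytosolic ribosomal proteins, at -0.54 and -0.94, are at the bottom, and hnRNP and SR proteins, at 0.31 and 0.35, at the top.

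The genes with the most RNase T1 reads had ratios of 1.04 to 2.10. PTP4A1, a protein tyrosine phosphatase, had 4174 reads (5195 RPM), 3393 reads (5059 RPM) and 1942 reads (10644 RPM), and was 2.05-fold (1.94 to 2.16) and 2.10-fold (1.99 to 2.23) higher with RNase T1. Its clusters are the same as those of ENSG00000285976. PABPC1, the cytoplasmic poly(A)-binding protein, had 6270, 5928 and 1678 reads (7803, 8838 and 9197 RPM), with ratios of 1.18 and 1.04. DCBLD2, a membrane receptor-like protein, had 4172, 3739 and 1604 reads and ratios of 1.69 and 1.58. KITLG, the ligand of the receptor KIT, had 4452, 3917 and 1395 reads and ratios of 1.38 and 1.31. The IgG library had 15 reads in PABPC1, 9 in CYB5B and 8 in PTP4A1. It had none in KITLG or DCBLD2 and none in the called genes named here, although at 324 reads the floor of 3 reads is worth 9259 RPM, more than any gene named here without IgG reads had.

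Of the 8 targets compared that the study names, 5 were within 2-fold of both RNase I libraries, and FABP5 was past 2-fold against both, higher with RNase T1. The study gives FABP5, PARK7 and SRPRB as examples of targets identified only with RNase I. For its overlap of targets between the enzymes it names the concentrations of the electroeluted pair, not those of the crushed-gel libraries. In the electroeluted pair PARK7 was 7.58-fold and SRPRB 6.39-fold lower with RNase T1, and FABP5 was 4.77-fold higher with recurring clusters kept. The study called targets by the level and conversions of single clusters, not by reads per gene, and names too few T-to-C transitions for FABP5. In the crushed-gel libraries FABP5 had 0.398 conversions per read with RNase T1, against 0.644 and 0.586 with RNase I. HMGA2, a chromatin protein of fetal tissue, had 1162, 952 and 447 reads (1446, 1419 and 2450 RPM) and was 1.69-fold (1.52 to 1.89) and 1.73-fold (1.54 to 1.93) higher with RNase T1. CCND1, cyclin D1, had 1944, 1746 and 720 reads (2419, 2603 and 3946 RPM) and was 1.63-fold and 1.52-fold higher. With electroelution HMGA2 was 1.35-fold higher and CCND1 1.18-fold lower with RNase T1. MYC, the transcription factor, had 268, 372 and 100 reads (334, 555 and 548 RPM), and its ratios of 1.64 and 0.988 gave no direction. CCNG1, cyclin G1, had 566, 511 and 119 reads and ratios of 0.926 and 0.856, with intervals that include 1. PARK7, a redox-sensitive chaperone, had 121, 161 and 19 reads and was 1.45-fold and 2.31-fold lower with RNase T1. SRPRB, a subunit of the signal recognition particle receptor, had 68, 117 and 15 reads and was 1.03-fold and 2.12-fold lower. GABARAPL2, of autophagosome formation, had 59, 57 and 8 reads. BCL3, CCND3 and RNF185 were under the minimum of 50 RPM. IGF2BP3 itself had 73, 82 and 21 reads (90.9, 122 and 115 RPM), with ratios of 1.27 and 0.941. IGF2BP2 had 55, 47 and 6 reads (68.5, 70.1 and 32.9 RPM) and was 2.08-fold and 2.13-fold lower with RNase T1, with intervals that include 1. IGF2BP1 had no cluster.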

How the data were processed

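IR-PAR-CLIP clusters of 6 libraries were used, 1 per condition. Per the labels and the study's methods, the authors removed duplicates by unique molecular identifiers (UMI-tools 1.1.1), trimmed reads with Trimmomatic 0.30, aligned them to GRCh38.p13 with Bowtie 0.12.7 and called clusters with PARalyzer. Base calls were converted with bcl2fastq 2.20.0.422. The values deposited by the authors are raw counts of reads and of T-to-C conversion events per cluster, not normalized. Cluster reads are not library sizes. Clusters of recurring sequence are listed at each copy, with the same read number at all copies for 75.5% of such sequences with RNase T1 0.25/0.25. How the aligner treated reads that match several places was not checked. Strand was kept.

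Read counts were summed per gene and scaled to a total of 1000000 cluster reads per library (RPM). Genes were called at 4-fold against both RNase I libraries, with 0 set to 3 reads. Ratios have exact conditional, levels exact Poisson and shares Wilson 95% intervals. Python 3.11.15, pandas 2.3.3, NumPy 2.4.6, SciPy 1.17.1, pysam 0.24.0, bedtools 2.31.1 and matplotlib 3.10.9 were used. The rule for calls was tried on simulated Poisson counts per gene. These include no calling of clusters and do not cover a count of 0 that arises there. A cluster touching several features counted for the 3′UTR first, then for coding sequence, then for the 5′UTR, and last for non-coding exons and introns. Named were the 12 genes called in each direction (9 higher) whose interval lay farthest from 1, the 5 with most RNase T1 reads, the paralogs, targets named by the study, and up to 3 members per list in either direction, of which a selection is given. The genes compared and the lists were chosen with earlier results of these data known. The alternatives changed the scale, filters, fold, gene assignment, depth, conversions, feature order, overlap and windows. Where the methods describe gel extraction, the RNase I 0.1/0.025 library has a lower in-lysate concentration than in its label, which was used here. 1 gene is not reported here.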

Additional observations from a re-analysis of the deposited data

Results flagged for a closer look

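In 6 genes the crushed-gel and the electroeluted libraries pointed in opposite directions, beyond counting error in the latter. The difference between the pairs was not tested. ACER3, an alkaline ceramidase, had 94, 56 and 0 reads with RNase I 0.1/0.025, RNase I 0.05/0.025 and RNase T1 0.25/0.25, but in the electroeluted pair it had 57.6 RPM with RNase I and 140 RPM with RNase T1, a log2 ratio of 1.28. ZDHHC2, a palmitoyltransferase, had 125, 118 and 0 reads, and 106 RPM and 223 RPM in the electroeluted pair, a log2 ratio of 1.07. The log2 ratio of the electroeluted pair was 0.68 for MT-ATP8, 0.50 for EIF5B, 0.32 for ZNF451 and 0.23 for RAB3B. Of these genes, RAB3B alone had RNase T1 0.25/0.25 reads. ACER3 and ZDHHC2 were taken because they were the lower genes at least 2-fold higher in the electroeluted pair, and the other genes because they were named among the lower ones. Among all 301 lower genes, 229 were below 1 and 23 above 1 in the electroeluted pair beyond counting error, and of the 9 higher genes 8 were above 1.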

How the results depend on the processing

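Each alternative changed 1 choice, except thinning with a conversion minimum and the guanosine-free run around the middle base, which changed 2, and where a value moved, the cause was not tested unless stated. The 9 genes higher with RNase T1 became 44 with a filter at 20 RPM, 2 at 200 RPM and 139 with no filter, 146 at 2-fold and 3 at 8-fold, and 15 with clusters in exons of 1 gene. They became 48 with clusters over 0.5 conversions per read, and 27 and 28 against RNase I 0.1/0.025 or 0.05/0.025 alone. The 301 lower genes became 17 at 200 RPM, 691 at 2-fold, 38 at 8-fold and 193 with clusters over 0.5 conversions per read. Among alternatives added after the data were seen, RNase I reads thinned with at least 2 conversions kept gave 23 higher and 165 lower genes, clusters of at least 10 reads gave 26 higher genes, and a count of 0 set to 6 gave 110 lower genes. The difference from the mean of the RNase I libraries was 2.79 points for 3′UTR reads and became 8.75 with coding sequence first, 6.60 by clusters and 2.20 with clusters over 0.5 conversions per read. For coding reads it was -3.18 points and became -9.14, -5.63 and -3.57 under the same settings, and -3.01 with RNase I thinned. The difference in median length of -15.5 nt became -58.5 nt weighted by reads, -24.0 nt thinned and -34.5 nt with clusters of at least 10 reads. The 79.1% of RNase T1 clusters found in both RNase I libraries became 13.8% by reciprocal overlap, 69.1% thinned and 93.1% for clusters of at least 10 reads, and the mode distance of 43 nt became 47 nt thinned and 54 nt for such clusters. Thinning lowered the reads of called clusters and kept their borders, so it does not show what calling at a lower depth would give. Between sites up to the lower and from the upper quartile of guanosines, recovery differed by 9.02 points for RNase I 0.1/0.025 and 8.88 for RNase I 0.05/0.025. This became 3.53 and 4.40 for sites of at least 40 reads and 4.22 and 4.27 with 10 nt on either side. It became 16 and 18 around the middle base and 16.6 and 16.6 by the longest run without guanosine there, both added after the data were seen. The other 25 comparison values stayed close to their main value. For 45 named called genes, 258 of 356 values stayed close, 96 moved, 49 alternatives gave no value, and FABP5 was reversed 2 times, each time with 0 RNase T1 reads set to the floor, to a log2 ratio of -3.64 without recurring sequences and -3.18 with clusters over 0.5 conversions per read. No paired analysis was possible because each condition has 1 library, and for the same reason no library could be left out other than by comparing with 1 RNase I library. At 182448 cluster reads, the floor of 3 reads is worth 16.4 RPM with RNase T1 0.25/0.25. A gene whose reads are spread over several sites may lie above that level and still have no called cluster.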
